A study of Mus musculus with 16 samples.

Results

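The genes described here are 10 transcripts that encode negative feedback regulators or a reporter-type target of the ERK (extracellular signal-regulated kinase) pathway: the phosphatases Dusp4, Dusp5, Dusp6 and Dusp9, the Sprouty proteins Spry1, Spry2 and Spry4, the Spred proteins Spred1 and Spred2, and the ETS transcription factor Etv4. They were taken by symbol from a table of raw read counts that lists 23100 genes, and all 10 passed the filter on low counts. The libraries, 16 in all, were RNA-seq libraries of embryonic fibroblasts of the mouse, primary connective tissue cells grown from E13.5 embryos of strain C57BL/6 in DMEM with foetal bovine serum. Zac1-mutant cells (genotype Zac+/-, with the code KOpat in the titles, which the labels do not expand) and wildtype cells (Zac+/+) were each grown as 2 lines, marked I (replicate 1) and L (replicate 2). Each line was harvested once while proliferating, at day 2 in vitro, and as quiescent cells at days 8, 10 and 12. State and time in culture therefore cannot be told apart in these libraries. The labels do not say what the letters I and L stand for, or whether a line came from 1 embryo or several.

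In the ERK cascade, growth factor receptors activate RAS, and RAF, MEK and ERK kinases then activate each other in turn. Active ERK raises the transcription of its own antagonists. DUSP phosphatases remove phosphate from ERK itself, whereas Sprouty and Spred proteins act upstream, between the receptor and RAF. The levels of these transcripts are therefore widely read as a record of ERK output, and fibroblasts depend on serum growth factors to divide. The transcript levels measured here are not a measurement of ERK activity.

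The libraries held between 28079241 and 61039793 counts, so that 3 counts correspond to 0.0491 to 0.107 CPM, the counts scaled to library size. Zac1 is listed as Plagl1, and in quiescent cells it averaged 49.5 ± 2.94 CPM in mutant lines against 182 ± 26.6 CPM in wildtype lines (SD, n = 2 lines each), a log2 difference of -1.88 (SE 0.15, edgeR adjusted p = 0.00297). In proliferating cells it averaged 8.30 ± 1.05 CPM in mutant lines and 41.0 ± 5.21 CPM in wildtype lines (log2 difference -2.31, SE 0.16, edgeR adjusted p = 8.5e-04). All 9 fibroblast markers were detected, and their summed level was 30500 to 42800 CPM in quiescent and 13600 to 15100 CPM in proliferating libraries. Of these, Col1a1, Col1a2, Col3a1, Dcn, Pdgfra and Pdgfrb were higher at quiescence in both genotypes (edgeR adjusted p under 0.05). Vim and S100a4 were lower in both, and Thy1 did not pass. The log2 difference of Vim was -0.42 in mutant and -0.71 in wildtype lines, and that of S100a4 was -0.96 in mutant and -1.28 in wildtype lines. The sum of 11 macrophage markers ranged in quiescent libraries from 188 to 484 CPM in mutant line I and from 11.4 to 69.6 CPM in mutant line L, and from 28.3 to 80.3 CPM in wildtype line I and from 119 to 267 CPM in wildtype line L. At day 2 it was 105 CPM in mutant line I and 9.94 CPM in mutant line L, and 17.0 CPM in wildtype line I and 79.5 CPM in wildtype line L. The sum followed neither genotype nor letter, but it was higher in every quiescent library than in the day 2 library of the same line. These are bulk samples, in which fewer cells of a type and less RNA per cell cannot be told apart.

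Most of the feedback genes were lower in quiescent than in proliferating fibroblasts, in both genotypes. For this comparison the counts of days 8, 10 and 12 were summed within each line, because these days are repeat harvests of the same line, and states were compared over lines with edgeR's quasi-likelihood test (adjusted p under 0.05). In mutant lines 8 of the 10 genes fell and none rose. In wildtype lines 7 fell and Spry1 alone rose. Of all 15740 genes tested, 42.1% passed in mutant lines and 47.6% in wildtype lines, and those that fell were 21% in mutant lines and 23.7% in wildtype lines. The median log2 difference over the 10 genes was -0.77 in mutant lines and -0.96 in wildtype lines, beside 0.05 over all genes in each genotype. The p-values measure the spread between 2 lines per group, and an exact permutation test of 2 lines against 2 could not give a two-sided p below 0.333.

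The nuclear phosphatases Dusp4 and Dusp5 both fell in both genotypes. Dusp4, which dephosphorylates ERK in the nucleus, stood in mutant line I at 65.5, 7.96, 7.78 and 7.10 CPM on days 2, 8, 10 and 12, and in mutant line L at 44.0, 4.29, 4.26 and 3.02 CPM. In the wildtype it stood at 58.9, 8.94, 8.84 and 7.95 CPM in line I and at 56.7, 5.64, 5.46 and 4.42 CPM in line L. Every quiescent library lay far below every day 2 library, and within each line the quiescent days stood close together. Dusp4 fell 9.38-fold in mutant lines (log2 -3.23, SE 0.40, edgeR adjusted p = 0.00094) and 8.43-fold in wildtype lines (log2 -3.08, SE 0.40, edgeR adjusted p = 0.000901).

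Dusp5, an ERK-specific nuclear phosphatase, stood on days 2, 8, 10 and 12 at 20.9, 6.02, 9.37 and 5.33 CPM in mutant line I and at 18.1, 7.11, 6.53 and 7.39 CPM in mutant line L. In the wildtype it stood at 22.2, 10.7, 7.44 and 5.22 CPM in line I and at 20.6, 6.46, 5.81 and 8.73 CPM in line L. All 12 quiescent libraries lay below the 4 day 2 libraries, and the quiescent days had no common order across lines. Dusp5 averaged 7.0 ± 0.151 CPM in quiescent against 19.4 ± 1.87 CPM in proliferating mutant lines, and 7.25 ± 0.531 CPM in quiescent against 21.2 ± 1.01 CPM in proliferating wildtype lines (SD, n = 2 lines each). The log2 difference was -1.47 in mutant lines (SE 0.14, edgeR adjusted p = 3.76e-05) and -1.55 in wildtype lines (SE 0.14, edgeR adjusted p = 2.03e-05). An antisense gene, AC137853.2, overlaps Dusp5 on the opposite strand, and since no source used here gives the strand setting of the counting, reads of both could be joined.

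The promoters of Dusp5 and Dusp6, which fell, and of Spry1, which did not, are shown side by side because ETS and SRF factors are textbook targets of ERK signalling. The sequences are from RefSeq on build GRCm38.p6, a later build than the one the counts were made on, and run from 250 bases before to 50 bases after the annotated start on the plus strand. They lie at chr19:53528895-53529194 for Dusp5, chr10:99262981-99263280 for Dusp6 and chr3:37639697-37639996 for Spry1. Capitals mark matches to the ETS, AP-1, CRE and SRF CArG motifs.
Dusp5: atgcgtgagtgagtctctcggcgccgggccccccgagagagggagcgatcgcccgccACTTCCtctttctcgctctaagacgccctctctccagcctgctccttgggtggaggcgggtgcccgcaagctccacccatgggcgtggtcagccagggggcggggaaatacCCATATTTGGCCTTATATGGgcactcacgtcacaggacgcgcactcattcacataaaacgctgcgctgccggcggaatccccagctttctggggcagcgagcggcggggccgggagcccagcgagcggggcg
Dusp6: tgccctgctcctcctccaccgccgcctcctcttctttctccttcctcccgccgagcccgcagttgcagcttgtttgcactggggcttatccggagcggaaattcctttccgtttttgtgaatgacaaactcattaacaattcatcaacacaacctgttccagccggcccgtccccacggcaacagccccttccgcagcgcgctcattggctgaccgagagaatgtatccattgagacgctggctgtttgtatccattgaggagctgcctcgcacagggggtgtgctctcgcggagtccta
Spry1: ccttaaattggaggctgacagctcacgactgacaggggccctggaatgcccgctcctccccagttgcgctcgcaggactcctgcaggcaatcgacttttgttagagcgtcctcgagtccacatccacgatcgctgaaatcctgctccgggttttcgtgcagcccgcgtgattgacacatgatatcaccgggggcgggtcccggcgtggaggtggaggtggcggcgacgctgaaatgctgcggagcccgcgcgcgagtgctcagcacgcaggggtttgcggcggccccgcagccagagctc
The motifs searched on both strands were GGAAGT for ETS factors, TGANTCA for AP-1, TGACGTCA for CRE, GGGCGG for the GC box, GGGGCCCC for the GC-rich Zac1 motif, and the SRF CArG box. The Dusp5 window held 1 ETS match, ACTTCC at -193 to -188 from the start, and 2 adjoining CArG matches, CCATATTTGG at -82 to -73 and CCTTATATGG at -72 to -63. It also held a GC box, GGGCGG at -96 to -91. Among 32851 RefSeq promoters of the same length, 1.63% held a CArG match and 23.8% an ETS match. The Dusp6 window held none of the 6 motifs, and the Spry1 window held only a GC box at -60 to -55, a motif found in 35.7% of promoters. AP-1 letters occur in 7.81% of promoters, CRE letters in 1.79% and the Zac1 letters in 1.08%. Of the 10 genes, the promoters of 6 were searched (also Spry2, Spred1 and Spred2). Among these, Spred2 held 1 ETS match at -33 to -28 and 1 GC box, and Spred1 held 3 GC boxes. A match describes the letters in the window and does not show binding. The search took these exact letters, and the lack of a match does not show that binding is absent.

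The cytoplasmic ERK phosphatases Dusp6 and Dusp9 also fell in both genotypes, to very different extents. Dusp6, which holds ERK in the cytoplasm and inactivates it, stood on days 2, 8, 10 and 12 at 65.1, 42.5, 37.8 and 23.7 CPM in mutant line I and at 63.2, 35.5, 31.4 and 37.2 CPM in mutant line L. In the wildtype it stood at 66.3, 34.2, 28.5 and 20.9 CPM in line I and at 57.3, 30.6, 21.6 and 37.5 CPM in line L. Both I lines were lower at day 12 than at day 10, and both L lines were higher. The log2 difference of Dusp6 was -0.86 in mutant lines (SE 0.11, edgeR adjusted p = 0.00024) and -1.11 in wildtype lines (SE 0.11, edgeR adjusted p = 3.82e-05).

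Dusp9, an X-linked ERK phosphatase best known from placenta, had the largest fold difference of the 10 genes. It stood on days 2, 8, 10 and 12 at 19.3, 1.51, 1.91 and 0.796 CPM in mutant line I and at 17.9, 1.5, 0.943 and 0.508 CPM in mutant line L. In the wildtype it stood at 18.7, 2.46, 1.17 and 0.313 CPM in line I and at 16.1, 1.68, 1.18 and 0.422 CPM in line L. The day 12 libraries were the lowest of each line, with 26 and 18 counts in mutant lines and 18 and 23 counts in wildtype lines. Dusp9 fell 14.6-fold in each genotype, with a log2 difference of -3.87 in mutant lines (SE 0.22, edgeR adjusted p = 3.15e-06) and of -3.87 in wildtype lines (SE 0.22, edgeR adjusted p = 1.84e-06). Without day 8 in the quiescent sum, the wildtype log2 difference was -4.53.

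Etv4, a PEA3-family ETS factor whose transcript is a common readout of FGF and ERK signalling, fell with the phosphatases. It stood on days 2, 8, 10 and 12 at 39.8, 8.16, 9.10 and 7.71 CPM in mutant line I and at 34.9, 6.81, 8.94 and 7.14 CPM in mutant line L. In the wildtype it stood at 40.4, 10.8, 6.72 and 7.51 CPM in line I and at 41.5, 9.15, 7.06 and 6.22 CPM in line L. The quiescent libraries, between 6.22 and 10.8 CPM, lay clear of the day 2 libraries, between 34.9 and 41.5 CPM. Etv4 fell 4.64-fold in mutant lines (log2 -2.21, SE 0.13, edgeR adjusted p = 3.34e-06) and 5.17-fold in wildtype lines (log2 -2.37, SE 0.13, edgeR adjusted p = 1.69e-06).

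**Figure D1:**
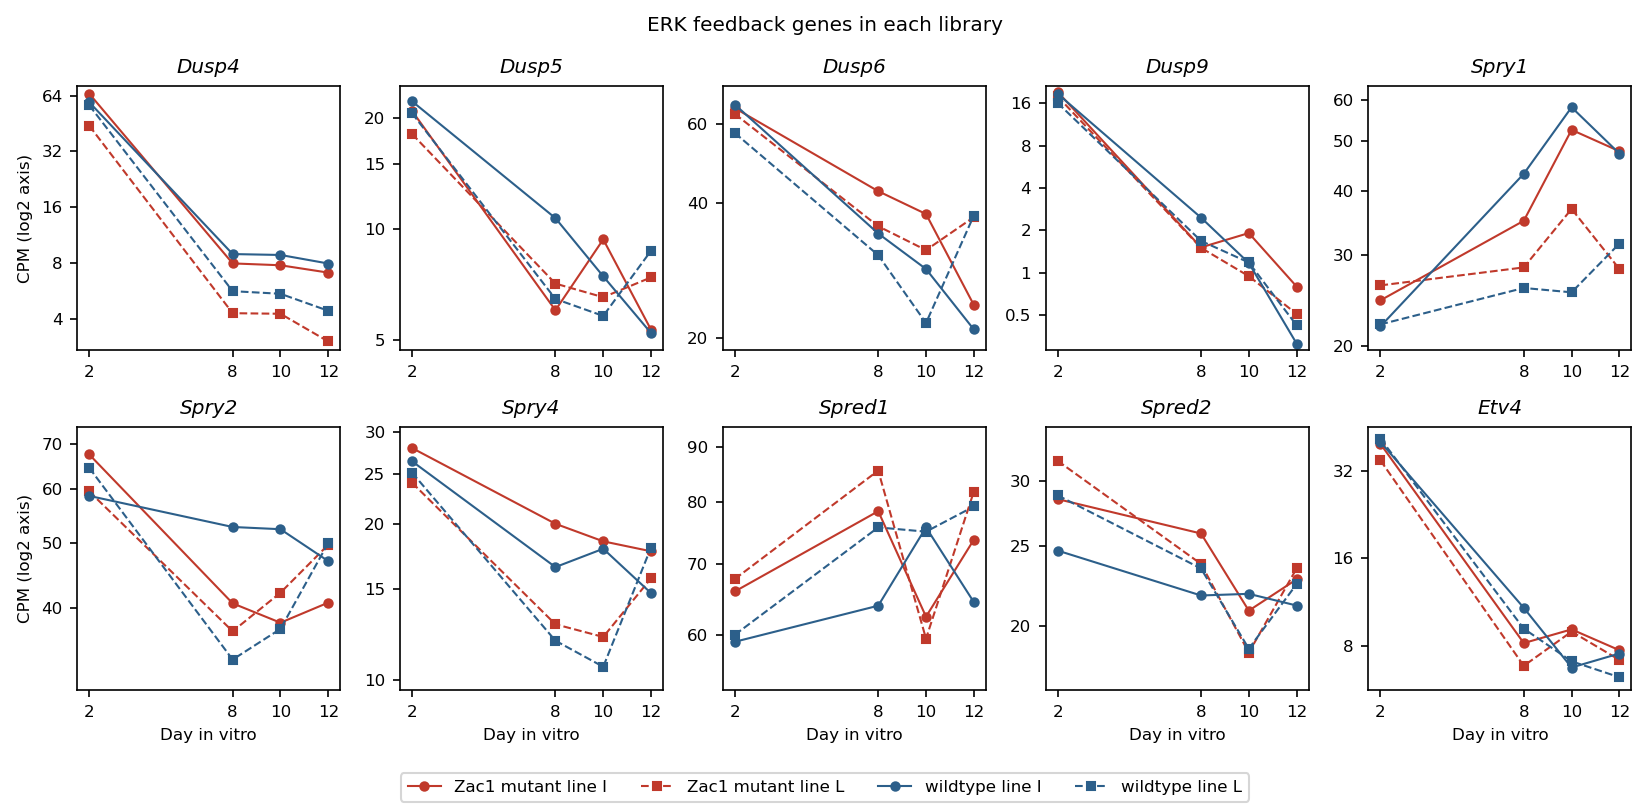
Level of each of the 10 genes in every library, in CPM on a log2 axis, against the day in vitro, with mutant lines in red and wildtype lines in blue, line I as circles and line L as squares. Dusp4, Dusp5, Dusp6, Dusp9, Spry2, Spry4 and Etv4 are lower in all quiescent libraries than in all day 2 libraries, whereas Spry1 is higher within each line. The quiescent days are repeat harvests of a line, and the share of all genes separated in this way was not computed.

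The 3 Sprouty genes did not move together. Spry1, which inhibits signalling downstream of receptor tyrosine kinases, stood on days 2, 8, 10 and 12 at 24.5, 35.0, 52.6 and 47.8 CPM in mutant line I and at 26.2, 28.4, 36.9 and 28.2 CPM in mutant line L. In the wildtype it stood at 21.8, 43.2, 58.2 and 47.3 CPM in line I and at 22.0, 25.9, 25.4 and 31.6 CPM in line L. Every quiescent library lay above the day 2 library of its own line, and by more in the I lines. The log2 difference was 0.58 in mutant lines (SE 0.26, edgeR adjusted p = 0.11) and 0.81 in wildtype lines (SE 0.26, edgeR adjusted p = 0.0348), so that Spry1 passed in wildtype lines only, and the difference between the genotypes did not pass (log2 -0.22, edgeR adjusted p = 1.00).

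The Spry1 calls depended on the fit. The mutant difference passed under 5 of 15 alternative settings, among them edgeR with the line as a replicate block (edgeR adjusted p = 0.0484), but not in limma-voom with lines as random blocks. The wildtype difference passed under 8 of 15 alternative settings. It was lost in limma-voom with lines as random blocks (adjusted p = 0.0814), with no filter on low counts (0.0602), without day 12 in the sum (0.0603) and with wildtype libraries alone (0.0675). It was also lost without mutant line I (adjusted p = 0.0726), without mutant line L (0.0804) and without wildtype line I, where the log2 difference was 0.31 (adjusted p = 0.422). A gene of uncertain type, Gm42922, overlaps Spry1 on the opposite strand, with the same doubt about strand as for Dusp5.

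Spry2 and Spry4, which act at the same step, fell in both genotypes. Spry2 stood on days 2, 8, 10 and 12 at 67.6, 40.7, 38.1 and 40.8 CPM in mutant line I and at 59.6, 37.0, 42.2 and 49.7 CPM in mutant line L. In the wildtype it stood at 58.7, 52.8, 52.4 and 47.0 CPM in line I and at 64.6, 33.6, 37.3 and 50.0 CPM in line L. Wildtype line I changed least, and both L lines were highest among their quiescent days at day 12. For Spry2 the log2 difference was -0.64 in mutant lines (SE 0.13, edgeR adjusted p = 0.00373) and -0.44 in wildtype lines (SE 0.13, edgeR adjusted p = 0.0201), and without wildtype line L the wildtype value was -0.24 (adjusted p = 0.376).

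Spry4 stood on days 2, 8, 10 and 12 at 28.0, 20.0, 18.5 and 17.7 CPM in mutant line I and at 24.0, 12.8, 12.1 and 15.7 CPM in mutant line L. In the wildtype it stood at 26.4, 16.5, 17.9 and 14.7 CPM in line I and at 25.1, 11.9, 10.6 and 18.0 CPM in line L. No quiescent library reached the lowest day 2 value. For Spry4 the log2 difference was -0.69 in mutant lines (SE 0.18, edgeR adjusted p = 0.012) and -0.80 in wildtype lines (SE 0.18, edgeR adjusted p = 0.00495). The calls were lost without mutant line L in mutant lines (adjusted p = 0.0582) and without wildtype line L in wildtype lines (adjusted p = 0.0925). The small RNA genes Gm27369 and Gm27804 overlap Spry4 on the opposite strand.

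The Spred genes, whose products bind neurofibromin and restrain RAS, changed least. Spred1 stood on days 2, 8, 10 and 12 at 65.9, 78.4, 62.4 and 73.7 CPM in mutant line I and at 67.7, 85.6, 59.5 and 81.8 CPM in mutant line L. In the wildtype it stood at 59.1, 63.9, 75.7 and 64.4 CPM in line I and at 60.0, 75.7, 75.0 and 79.2 CPM in line L. States overlapped in mutant lines, where day 10 was the lowest day in both, and did not overlap in wildtype lines. For Spred1 the log2 difference was 0.12 in mutant lines (SE 0.10, edgeR adjusted p = 0.359) and 0.27 in wildtype lines (SE 0.10, edgeR adjusted p = 0.0511). The wildtype difference passed under 4 of 15 alternative settings, with the lowest adjusted p, 0.0168, under upper quartile normalization.

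Spred2 stood on days 2, 8, 10 and 12 at 28.5, 25.9, 20.9 and 22.8 CPM in mutant line I and at 31.7, 23.8, 18.6 and 23.5 CPM in mutant line L. In the wildtype it stood at 24.7, 21.8, 21.9 and 21.2 CPM in line I and at 28.8, 23.5, 18.8 and 22.5 CPM in line L. Within each genotype all quiescent libraries were lower than both day 2 libraries. Spred2 fell by 0.42 on the log2 scale in mutant lines (SE 0.12, edgeR adjusted p = 0.0213), a call lost without mutant line L (adjusted p = 0.307) or without day 10 in the sum (0.0752). In wildtype lines the log2 difference was -0.32 (SE 0.12, edgeR adjusted p = 0.0601), and DESeq2 gave an adjusted p of 0.0488.

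**Figure D2:**
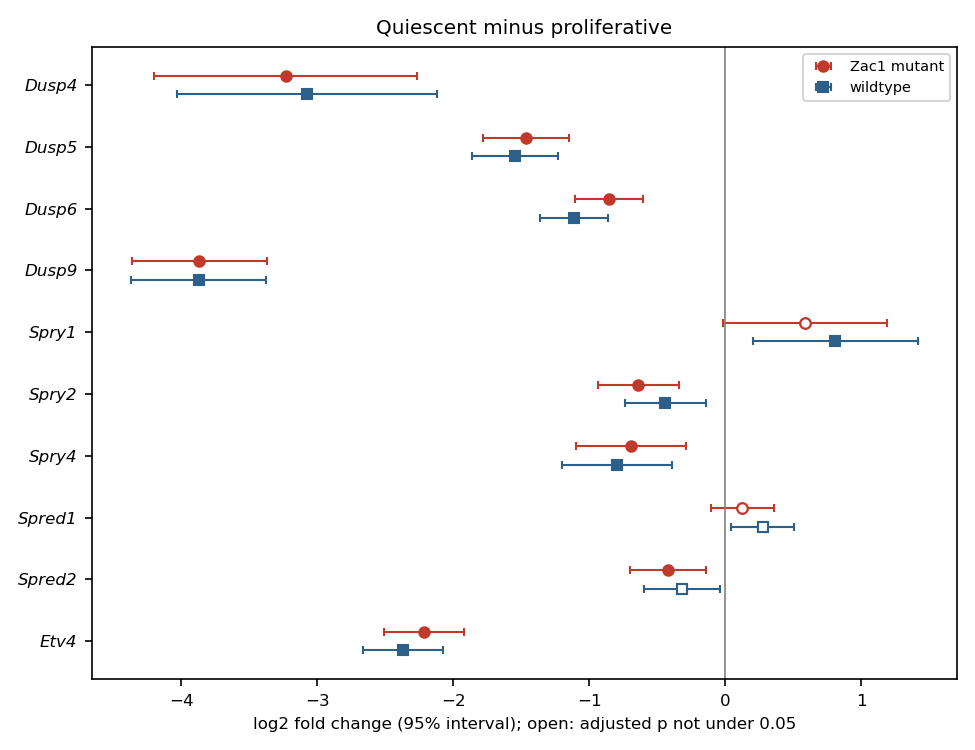
Log2 difference of quiescent minus proliferating cells for each of the 10 genes, mutant lines in red and wildtype lines in blue, as the edgeR estimate with its 95% interval (n = 2 lines per group), open where the adjusted p was not under 0.05. The values run from -3.87 for Dusp9 in both genotypes to 0.81 for Spry1 in wildtype lines.

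Other measures moved with the state as well. The sum of 8 proliferation markers was 222 to 464 CPM in quiescent and 1470 to 1490 CPM in proliferating mutant libraries, and 235 to 483 CPM in quiescent and 1580 to 1720 CPM in proliferating wildtype libraries. The sum of 5 epithelial markers was 5.05 to 14.6 CPM in quiescent and 54.9 to 70.0 CPM in proliferating libraries, and that of 6 endothelial markers was 2.97 to 7.60 CPM in quiescent and 14.5 to 19.7 CPM in proliferating libraries. The macrophage sum, given above, was higher at quiescence in all 4 lines. That of 4 cartilage markers was 66.7 to 81.1 CPM in quiescent libraries and 169 CPM at day 2 in mutant line I, and 135 to 399 CPM in quiescent libraries and 394 CPM at day 2 in mutant line L. In the wildtype the cartilage sum was 73.5 to 116 CPM in quiescent libraries and 187 CPM at day 2 in line I, and 116 to 155 CPM in quiescent libraries and 308 CPM at day 2 in line L. Not every marker moved with its sum: Cdh1 and Tek, named after their values were seen, rose in both genotypes, Cdh1 with few counts at day 2 (edgeR adjusted p = 0.026 in mutant and 0.0223 in wildtype lines) and Tek with an edgeR adjusted p of 0.0179 in mutant and 0.00561 in wildtype lines. Of the other markers in these lists, Cldn5 was at 0 in all proliferating libraries and Matn1 in proliferating wildtype libraries. The part of these markers in the state differences of the feedback genes was not tested.

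Per kilobase of exon, the order of the genes changed with the state. In proliferating cells Spry2 stood highest, at 30.3 ± 2.57 CPM per kb in mutant lines and 29.2 ± 2.1 CPM per kb in wildtype lines. Dusp6 followed at 20.3 ± 0.352 CPM per kb in mutant and 19.5 ± 1.93 CPM per kb in wildtype lines, and Dusp4 at 19.8 ± 5.42 CPM per kb in mutant and 20.8 ± 0.450 CPM per kb in wildtype lines, which did not differ beyond their spread. Spry4 stood lowest, at 5.43 ± 0.573 CPM per kb in mutant and 5.36 ± 0.162 CPM per kb in wildtype lines. In quiescent cells Spry2 was still highest, at 19.4 ± 0.805 CPM per kb in mutant and 21.5 ± 3.48 CPM per kb in wildtype lines, and Spry1 came next by mean, at 13.0 ± 3.15 CPM per kb in mutant and 13.0 ± 5.19 CPM per kb in wildtype lines. The spread of Spry1 took in the means of Dusp6 and Spred1 in both genotypes. Dusp4 was then at 2.11 ± 0.958 CPM per kb in mutant and 2.47 ± 0.863 CPM per kb in wildtype lines, and Dusp9 was lowest, at 0.464 ± 0.121 CPM per kb in mutant and 0.431 ± 0.0490 CPM per kb in wildtype lines (SD, n = 2 lines throughout).

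The course over days was followed over all 16 libraries as the mean of both genotypes, in which the harvests of 1 line enter as if they were separate samples. From day 2 to day 8, 9 of the 10 genes passed, 8 of them lower and Spred1 higher, beside 54.5% of all 15439 genes tested, 26.4% lower and 28.1% higher. The log2 differences of those that fell ran from -0.26 for Spred2 (edgeR adjusted p = 0.0253) to -3.35 for Dusp9 (edgeR adjusted p = 4.62e-08). The log2 difference was -3.07 for Dusp4 (edgeR adjusted p = 4.07e-05) and -2.18 for Etv4 (edgeR adjusted p = 3.41e-09), so that most of their difference between states was present by day 8. Spred1 rose by 0.26 (SE 0.08, edgeR adjusted p = 0.0166), while Spry1 had a log2 difference of 0.49 (edgeR adjusted p = 0.176), which passed in edgeR with the line as a replicate block (0.0346) and without wildtype line L (0.0495), and under no other setting tried. The Spred1 call was lost without mutant line I (0.0507), mutant line L (0.0869) or wildtype line L (0.0956), and the Spred2 call without mutant line L (0.206), wildtype line I (0.0905) or wildtype line L (0.234), or with upper quartile scaling (0.0625).

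Among the quiescent days little more was detected. From day 8 to day 10 none of the 10 genes passed in edgeR or DESeq2, beside 0.0648% of all genes in edgeR. Of the 10, 1 gene, Spred2, had an unadjusted edgeR p under 0.05 (log2 difference -0.24, SE 0.09, edgeR adjusted p = 0.353). So did 1611 of all 15439 genes, a share near that of the 10 genes. From day 10 to day 12 Dusp9 alone fell, by 1.41 on the log2 scale (SE 0.25, edgeR adjusted p = 0.0209), in all 4 lines, beside 0.415% of all genes that passed and 0.389% that fell. This call was lost without mutant line L (adjusted p = 0.0773), wildtype line I (0.61) or wildtype line L (0.492). It was also lost in limma-voom with lines as random blocks (adjusted p = 0.108), but not in edgeR with the line as a replicate block. Both of these fits allow for repeat harvests of a line.

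No difference of the feedback genes between mutant and wildtype lines was detected with 2 lines per genotype. Between mutant and wildtype lines 0 of the 10 genes passed in edgeR, DESeq2 or limma-voom, in quiescent or in proliferating cells. Of all genes, 0.00635% passed in edgeR in each state, which is 1 gene, Plagl1 itself. In limma-voom 0 of all genes passed in proliferating cells, so that fit did not detect Plagl1 there either. At an unadjusted edgeR p under 0.05 there was 1 of the 10 genes in quiescent cells, Dusp6, beside 76 of all 15740 genes tested. In proliferating cells there were 0 of the 10, beside 451 of all 15740. The difference between the genotypes in the response to quiescence also passed for 0 of the 10 genes by each of these tools, and 0% of all genes passed in edgeR. For this difference 0 of the 10 had an unadjusted edgeR p under 0.05, beside 265 of all 15740 genes.

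Dusp6 averaged 35.2 ± 1.58 CPM in quiescent mutant lines and 28.2 ± 1.41 CPM in quiescent wildtype lines (SD, n = 2 lines each). The log2 difference was 0.32, with a 95% interval from 0.07 to 0.57, and did not survive adjustment over all genes (edgeR adjusted p = 1.00). Mutant libraries lay above wildtype libraries at days 8 and 10 and overlapped with them at day 12. In proliferating cells Dusp6 averaged 63.7 ± 1.1 CPM in mutant lines and 61.0 ± 6.05 CPM in wildtype lines, with a log2 difference of 0.06 (95% interval -0.19 to 0.31).

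The intervals show what sizes of genotype difference the data could still hold. In quiescent cells the 95% interval of the log2 difference was -0.20 to 0.25 for Spred1, -0.25 to 0.31 for Etv4 and -0.36 to 0.26 for Dusp5. It was widest for Dusp4, at -1.13 to 0.67, and for Spry1, at -0.60 to 0.59. Dusp4 averaged 5.78 ± 2.62 CPM in quiescent mutant lines and 6.77 ± 2.36 CPM in quiescent wildtype lines, and its spread between lines was larger than the difference between genotypes. In proliferating cells the intervals were -0.06 to 0.40 for Spred1, -0.41 to 0.15 for Etv4, -0.44 to 0.18 for Dusp5 and -0.96 to 0.81 for Dusp4. The difference of the quiescence response ran from -0.22 for Spry1 (95% interval -1.08 to 0.63) to 0.26 for Dusp6 (95% interval -0.09 to 0.61).

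**Figure D3:**
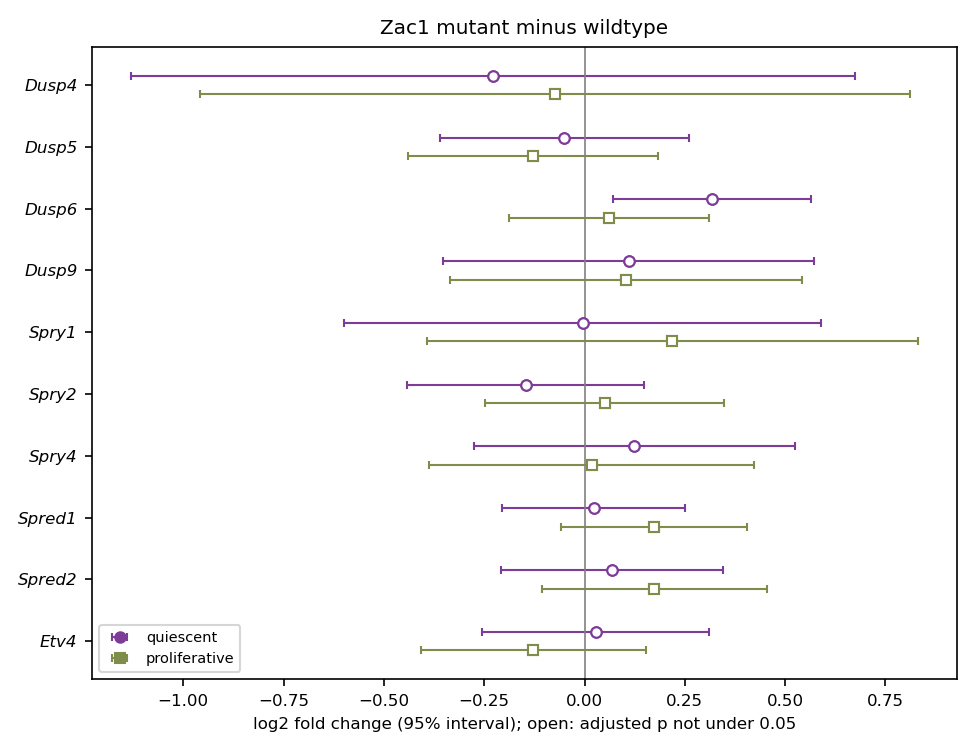
Log2 difference of mutant minus wildtype lines for each of the 10 genes in quiescent and in proliferating cells, as the edgeR estimate with its 95% interval (n = 2 lines per genotype). The interval of Dusp6 in quiescent cells, 0.07 to 0.57, lies above 0, and its adjusted p is 1.00.

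Lines of the 2 genotypes were also set apart by whether their values overlapped. In quiescent cells 2 of the 10 genes, Dusp6 and Spred2, were higher in both mutant lines than in both wildtype lines, beside 22.7% of all genes without overlap in either direction. In proliferating cells 3 did not overlap, Spry1 and Spred1 higher and Etv4 lower in mutant lines, beside 23.8% of all genes. Both counts are near the share over all genes.

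Lines with the letter I and lines with the letter L were set apart in the same way. With the quiescent days summed per line, 7 of the 10 genes did not overlap between the I lines and the L lines of both genotypes, beside 51.1% of all genes in either direction. Of the 7, 6 were lower in L lines and Spred1 was higher. At day 2, 6 did not overlap, 5 lower and 1 higher in L lines, beside 50.8% of all genes in either direction. The shares of all genes lower or higher in L lines were not computed. Over single quiescent libraries Dusp4 alone was without overlap and the other 9 genes overlapped. The share of all genes without overlap at this measure, or higher in line I in every pair, was not computed. The 6 quiescent libraries of a letter are repeat harvests and not separate lines. Dusp5 was higher in line I in 3 of 6 pairs of the same genotype and day (median 6.73 CPM in I and 6.82 CPM in L libraries), and Dusp9 in 4 of 6 pairs. Dusp4 was at 7.10 to 8.94 CPM in the 6 quiescent I libraries (median 7.95 CPM) and at 3.02 to 5.64 CPM in the 6 quiescent L libraries (median 4.35 CPM), higher in line I on every day of each genotype. Spry1 was at 35.0 to 58.2 CPM in quiescent I libraries (median 47.5 CPM) and at 25.4 to 36.9 CPM in quiescent L libraries (median 28.3 CPM), again higher in line I in 6 of 6 pairs. The sum of 4 neural markers was 22.1 to 35.3 CPM in quiescent I libraries and 11.5 to 21.3 CPM in quiescent L libraries, and that of the 6 endothelial markers was 4.57 to 7.60 CPM in I and 2.97 to 3.92 CPM in L libraries. Muscle markers (4 genes) summed to 18.4 to 29.0 CPM in I and 9.65 to 19.6 CPM in L libraries. The cartilage sum was lower in I libraries in both genotypes, at 66.7 to 116 CPM in I and 116 to 399 CPM in L libraries. The part of these in the difference was not tested.

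Other genes of the pathway moved in both directions. Of 82 listed genes 81 were tested, and between quiescent and proliferating cells 12 rose and 24 fell in mutant lines, and 16 rose and 25 fell in wildtype lines. Of all genes, 21.1% rose and 21% fell in mutant lines, and 23.9% rose and 23.7% fell in wildtype lines, and the counts of each list below stand beside these shares. Their median log2 difference was -0.13 in mutant lines and -0.09 in wildtype lines. Between the genotypes 0 of the 81 passed in either state in edgeR.

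Among 6 other dual-specificity MAP kinase phosphatases, 4 fell and 0 rose in each genotype. Dusp10, which acts mainly on JNK and p38 kinases, averaged 9.42 ± 1.32 CPM in quiescent and 27.7 ± 3.40 CPM in proliferating mutant lines (log2 -1.56, SE 0.16, edgeR adjusted p = 4.73e-05), and 8.93 ± 1.01 CPM in quiescent and 28.2 ± 0.999 CPM in proliferating wildtype lines (log2 -1.66, SE 0.16, edgeR adjusted p = 2.53e-05). The log2 difference of Dusp1, an immediate early phosphatase, was -0.98 in mutant and -1.05 in wildtype lines, and that of Dusp16 was -0.73 in mutant and -0.59 in wildtype lines. Dusp2, under 1 CPM in every group, fell too. Among the other Sprouty, Spred and PEA3 genes, Spred3 was the 1 of 4 that fell in each genotype, with log2 differences of -0.70 in mutant and -0.49 in wildtype lines. Etv5, the close relative of Etv4, had a log2 difference of -0.18 in mutant lines (edgeR adjusted p = 0.313) and -0.20 in wildtype lines (edgeR adjusted p = 0.244).

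Among 9 other transcripts that respond to ERK, 5 fell and 2 rose in each genotype. Fosl1, an AP-1 subunit stabilised by ERK, had a log2 difference of -2.52 in mutant lines (edgeR adjusted p = 3.99e-05) and -2.82 in wildtype lines (edgeR adjusted p = 1.71e-05). The log2 difference of Ier3, an early response gene, was -1.60 in mutant and -1.94 in wildtype lines. That of Myc, a growth regulator, was -1.59 in mutant and -1.88 in wildtype lines, and that of Phlda1 was -1.45 in mutant and -1.74 in wildtype lines. The 2 that rose were the immediate early genes Fos and Egr1, named here after their values were seen. Fos had a log2 difference of 1.77 in mutant lines (edgeR adjusted p = 7.63e-05) and 1.56 in wildtype lines (edgeR adjusted p = 0.00012), and Egr1 of 1.13 in mutant lines (edgeR adjusted p = 0.000268) and 1.16 in wildtype lines (edgeR adjusted p = 0.00018).

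Of 13 RAS, RAF, MEK and ERK genes, 1 rose and 5 fell in mutant lines, and 2 rose and 5 fell in wildtype lines. Rras2, a RAS relative, fell in both genotypes (log2 difference -1.52 in mutant and -1.67 in wildtype lines), and Braf rose in both (0.93 in mutant and 0.82 in wildtype lines). Of 12 adaptors, exchange factors and scaffolds tested, Gab1 rose and Ptpn11 fell in both genotypes, while Shc1 rose in wildtype lines. Of 13 other negative regulators, 1 rose and 2 fell in mutant lines, and 2 rose and 3 fell in wildtype lines. The feedback inhibitor Il17rd (Sef) rose by 1.13 on the log2 scale in mutant lines (edgeR adjusted p = 0.00107) and 1.80 in wildtype lines (edgeR adjusted p = 5.51e-05). Of 8 receptors, Egfr, Fgfr1 and Fgfr2 rose and Met fell in both genotypes. Fgfr2 averaged 172 ± 50.4 CPM in quiescent and 59.5 ± 5.27 CPM in proliferating mutant lines, and 158 ± 49.8 CPM in quiescent and 55.4 ± 1.16 CPM in proliferating wildtype lines.

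Of 16 FGF, EGF and HGF ligands, 4 rose and 5 fell in mutant lines, and 5 rose and 5 fell in wildtype lines. Hbegf, an EGF receptor ligand induced by ERK, had a log2 difference of -1.43 in mutant lines (edgeR adjusted p = 2.13e-05) and -2.03 in wildtype lines (edgeR adjusted p = 2.68e-06). The log2 difference of Ereg, another EGF receptor ligand, was -1.43 in mutant and -1.83 in wildtype lines, and that of Fgf18 was 2.83 in mutant and 3.47 in wildtype lines. Fgf21, an endocrine FGF, had 519 counts in quiescent and 0 in proliferating mutant libraries, which makes it at least 49.5-fold higher against a floor of 3 counts over the group. In wildtype libraries it had 407 counts in quiescent and 1 in proliferating cells, a ratio of 126 with a 95% counting interval from 22.5 to 4990.

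**Figure D4:**
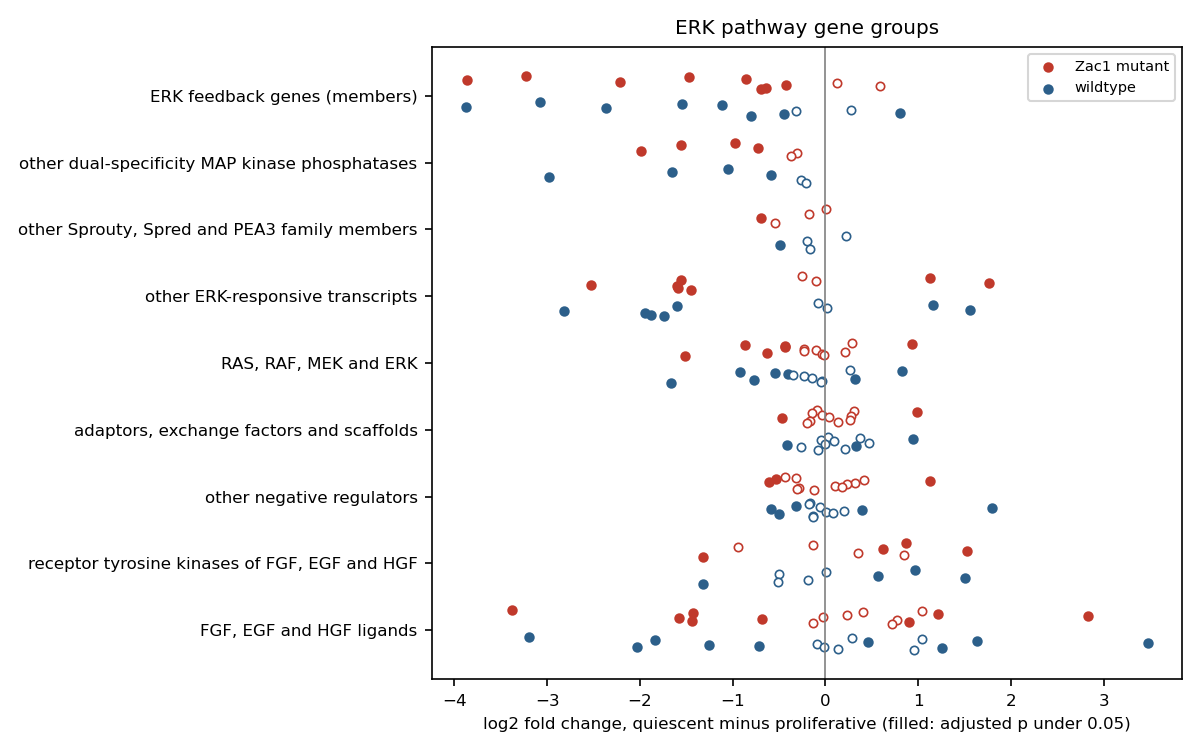
Log2 difference of quiescent minus proliferating cells for every tested gene of each pathway list and for the 10 feedback genes (n = 2 lines per group), 1 point a gene, mutant lines in red above wildtype lines in blue, filled where the edgeR adjusted p was under 0.05. Fgf21, with 0 counts in proliferating mutant libraries, is left out, and the point farthest to the right is Fgf18 in wildtype lines at 3.47.

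The genes with the pattern most like that of a feedback gene were ranked by Pearson's r of log2(CPM + 1) over the 8 means of genotype and day, among 10475 genes with a mean of at least 5 CPM. These means share 4 lines, and the values are a description. For Dusp4 they were Fam65b (r = 0.999), Smad7 (0.998) and Kcnab1 (0.998), for Dusp6 Ap1g2 (0.993), and for Spry1 Zfp362 (0.998) and Samd14 (0.99).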

How the data were processed

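RNA-seq libraries were stranded TruSeq libraries from DNase-treated total RNA, per the labels' protocols. The authors deposited 1 table of raw counts per gene, the unit analysed here. Per the submitters' processing notes, HTSeq 0.6.1p1 and the aligners TopHat2 2.1.1 and Bowtie2 2.2.9 were used, with bcl2fastq 2.18 for demultiplexing and the mm9 build. The annotation and strand setting are not given in the sources used here. Without a known strand setting, overlapping genes are uncertain.

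From the counts, 2 fits were made with edgeR 4.0.16 (R 4.3.3; TMM scaling, filterByExpr, robust quasi-likelihood, Benjamini-Hochberg adjustment over all genes tested, threshold 0.05). States and genotypes were compared on 8 libraries, with the 3 quiescent days summed per line (15740 genes, 4 residual degrees of freedom). Days were compared on all 16 libraries, grouped by genotype and day, over 15439 genes with 8 residual degrees of freedom. SE is the absolute log2 difference divided by the square root of F. The 2 states of a line share that line by label, and their deviations correlated at 0.196 in mutant and 0.208 in wildtype lines. Alternatives used DESeq2 1.42.0, limma 3.58.1 (voom), RLE and upper quartile scaling, other filters, a replicate block (the line for states and days, the replicate number for genotypes), single lines or days left out, and the libraries of a comparison alone. The fits were tested on simulated counts, drawn independently for each library. That test cannot show how the fits treat repeat harvests of a line or the letters I and L. CPM values use TMM-scaled library sizes, and counting intervals cover counting error only. Exon lengths and overlaps are from GENCODE on a later build (GRCm38), and no coordinates were carried between builds.

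The genes and lists were chosen with earlier results of these data known. All 10 genes are named, and of each pathway list up to 4 genes with the smallest p between states in wildtype lines. Hras is listed as Hras1.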

Additional observations from a re-analysis of the deposited data

How the results depend on the processing

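Of 107 recomputed counts of feedback genes that passed, 103 equalled the reported count or stayed within 1.5 times it. These 103 take in the genotype comparisons and day 10 against day 8, where the count was 0 under every setting. The exceptions were the day 12 against day 10 comparison, with 0 genes under limma-voom with the line as a block, and with 0 to 1 genes when single lines were left out. Leaving out single lines gave 6 to 9 genes between states in mutant lines, 6 to 7 in wildtype lines, and 7 to 8 between day 8 and day 2. Of 1070 recomputed log2 differences of single genes, 0 of those that had passed reversed, 23 no longer passed and 12 newly passed. With the replicate block, 9 genes passed between states in mutant lines, 8 in wildtype lines and 10 between day 8 and day 2. Same-numbered mutant and wildtype lines share the letter I or L, whose meaning the labels do not give. With 2 such pairs, the same-numbered lines correlated at 0.154 in quiescent and 0.289 in proliferating cells. The reported genotype comparisons had no block for the letter, so its spread stayed in their error. Over all genes, the wildtype count between states was 4185 without wildtype line I and 4380 without wildtype line L, against 7486, the day 10 against day 8 count was 223 in DESeq2 against 10, and the day 12 against day 10 count was 338 in DESeq2 against 64. The causes were not tested. The number of lines, 2 per group, limits the precision of every comparison.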
